A study of Homo sapiens with 8 samples.

Results

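The genes described here are the trefoil factors TFF1 and TFF3, their secretory companion AGR2, and the luminal breast regulators GREB1, ESR1, GATA3, FOXA1, XBP1 and PGR, 9 genes in all. They were chosen by name, with earlier results of these arrays known. The choice used the high readings of TFF1 and TFF3 on the arrays of code 1, so every code 1 difference below is a description without a test. The platform annotation named probes for 7 of the 9 genes, 13 probes among the 33446 of the table, which name 15971 genes. Of a gene's probes the one with the highest mean over all 8 arrays was taken. FOXA1 and PGR had no probe named here and were not analysed. All 7 genes entered each main comparison below, and these used no filter on low values. An alternative without the dimmest 50% of probes left out GREB1, ESR1 and GATA3. It ranked probes by their mean over all 8 arrays, so TFF3 and AGR2 stayed in through their high code 1 readings. On the 5 other arrays they averaged 254 and 351, below the lowest array median of 370.

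MDA-MB-231, the line behind all arrays, is an established human line of basal, mesenchymal breast cancer known to lack the estrogen receptor. Cells transfected with 75 nM of a miR-148b precursor were compared with cells transfected with a negative control, whose dose the labels do not give, 48 h later on Agilent arrays of 1 dye, with 4 arrays per group. The labels call them biological replicates of this 1 line and do not say whether they came from separate cultures, so p-values measure the spread between these arrays. Each title has a code number, some have a plus mark as well, and the labels explain neither. Code 1 stands on miR-148b replicates 1 and 2 and control replicate 1, code 2 on miR-148b replicate 3 and control replicates 2 and 3, and code 3 on replicate 4 of both groups. The plus mark stands on miR-148b replicates 2 and 3 and control replicate 3.

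The arrays separated mainly by these title marks. Code 1 took 48.3% of the variance, the plus mark 25.3% and the treatment 12.3%. Any split of so few arrays takes some share, so the 12.3% is not by itself an effect of the precursor. Code 1 is also uneven over the treatments, with 2 miR-148b arrays and 1 control array. Array medians lay between 370 and 404 normalized intensity units, and precision is limited by the small number of arrays. Empty cells per array ran from 81 to 1038, and the medians rose in the same order. The plus arrays had the most empty cells (977, 1011 and 1038), which bears on plus mark differences at dim probes and was not tested. The label of the line was set against fixed markers. VIM, the mesenchymal filament vimentin, read from 111883 to 185689 on the 8 arrays, and ESR1 and CDH1, the gene of E-cadherin, read at most 92.5 and 115, far below every array median. The markers did not all follow the label. Of 12 measured luminal markers 6 had a mean level above that of the median probe, the keratin genes KRT8, KRT18 and KRT19 and the adhesion genes EPCAM, CLDN7 and CLDN4 (means of 2841, 1414 and 839). Of 11 basal and mesenchymal markers 2 were below it, SPARC and the repressor ZEB1 (means of 173 and 146). The summed luminal marker level, over 12 of 13 markers, was 180737 to 210882 on code 1 arrays and 153661 to 176378 on the others, most of it keratin. The summed level of the 11 basal and mesenchymal markers was 305032 to 328662 on code 1 arrays and 282970 to 351235 on the others. The summed leukocyte markers, 3 of 4 named, were 274 to 350 on code 1 arrays and 359 to 513 on the others. This gap was that of CD14 (means of 139 and 295). CD3E and PTPRC were higher on code 1 arrays (156 against 132 and 14.2 against 10.9). The 3 endothelial markers summed to 305 to 312 on code 1 arrays and 126 to 181 on the others. Here the gap was that of PECAM1 (means of 257 and 91.0). VWF was lower on code 1 arrays (36.7 against 44.2), and CDH5 differed little (13.7 against 11.9). All 6 of these non-epithelial markers had mean levels below that of the median probe. The part of other cells in the results was not tested.

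Luminal breast cells depend on a small circuit of transcription factors. The estrogen receptor ESR1 binds chromatin that the forkhead factor FOXA1 and the zinc finger factor GATA3 hold open, and induces genes such as GREB1, a receptor coactivator, PGR, the progesterone receptor, and TFF1, long used as a marker of estrogen response. Trefoil factors are small secreted peptides that act with mucins on epithelial surfaces. AGR2 is a disulfide isomerase of the endoplasmic reticulum needed for mucin folding, and XBP1 is the transcription factor of the unfolded protein response that expands the secretory pathway. MicroRNAs such as miR-148b lower the level or translation of messages that carry a match to their seed.

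The mature sequence is shown because the transfected precursor gives it, beside the other human mature microRNAs of RefSeq (GRCh38.p14) with the same seed, bases 2 to 8, in capitals.
hsa-miR-148b-3p: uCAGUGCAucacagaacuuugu
hsa-miR-148a-3p: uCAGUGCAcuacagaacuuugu
hsa-miR-152-3p: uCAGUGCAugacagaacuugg
The 3 microRNAs thus share the seed that a target message pairs with. Whether the messages of the 7 genes carry a match was not analysed here.

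The promoter of AGR2 is shown because AGR2 was high together with the trefoil factors. It runs from 250 bases before to 50 after the start of the gene (RefSeq, GRCh38.p14, chr7:16804950-16805249, minus strand), and the capitals mark the GATA-type motif GATAA.
AGR2: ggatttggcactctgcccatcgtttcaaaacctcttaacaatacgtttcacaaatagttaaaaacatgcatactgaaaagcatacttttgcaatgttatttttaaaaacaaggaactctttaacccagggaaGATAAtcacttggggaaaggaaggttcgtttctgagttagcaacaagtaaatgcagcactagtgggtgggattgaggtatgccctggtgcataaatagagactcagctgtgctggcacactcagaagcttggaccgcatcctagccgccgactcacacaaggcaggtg
Searched on both strands, the window held GATAA 1 time, with its first base at position -118 from the start, and 22.7% of 35116 promoters of the same length hold it. It held neither of the forkhead motifs TGTTTAC and TATTTAC, present in 3.42% and 2.67% of promoters, nor GGTCA, an arm of an estrogen response element, present in 37.4%. The table of promoters has entries for 6 of the 9 genes, and TFF1, TFF3 and GREB1 are not among them.

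TFF1 and TFF3 were high on the 3 arrays of code 1, and AGR2 went with them. The measured luminal regulators GATA3, ESR1, XBP1 and GREB1 did not, all but XBP1 on dim probes. TFF1 read 11813 and 9042 on the code 1 miR-148b arrays and 10846 on the code 1 control array. On the arrays of codes 2 and 3 it read 419 and 241 with miR-148b and 394, 584 and 292 in control. The code 1 arrays of both treatments lay far above all others, at 10567 ± 1406 (SD, n = 3), against 386 ± 133 (SD, n = 5) elsewhere. This is a mean log2 difference of 4.83 (28.5-fold between geometric means), or 4.97 with treatment and plus mark in the model. The second, dimmer probe of TFF1 differed less, at 3.42, so that the size depends on the probe. The table carries no detection flag, so the low readings may lie near background, which would make the true ratio larger than the printed one. In RNA from whole cultures, fewer cells that carry a message and less message per cell cannot be told apart.

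TFF3, the intestinal trefoil factor, read 9102 and 7602 on the code 1 miR-148b arrays and 11763 on the code 1 control array. On the other arrays it read 168 and 240.3 with miR-148b and 247, 270.1 and 344 in control. Its lowest code 1 reading was again far above its highest reading elsewhere, with 9489 ± 2108 (SD, n = 3) on code 1 arrays, against 254 ± 63.1 (SD, n = 5) elsewhere. The mean log2 difference was 5.24 (37.7-fold), against 4.91 at a second probe and 4.79 at the dimmest, which had empty cells on replicate 3 of both groups.

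AGR2, the isomerase, read 2618 and 2247 on the code 1 miR-148b arrays and 3427 on the code 1 control array. On the other arrays it read 231 and 325 with miR-148b and 348, 351 and 498 in control. The code 1 arrays did not overlap with the others, with 2764 ± 603 (SD, n = 3) against 351 ± 95.8 (SD, n = 5), and the mean log2 difference of 3.00 (8.0-fold) was smaller than that of the trefoil factors. Among 14820 genes with a value on every array, ordered by this difference, TFF3 stood at place 13, TFF1 at 21 and AGR2 at 97 from the top. At least 16-fold higher on code 1 arrays were 51 of 15964 genes, or 0.319%, and at least 4-fold higher 312, or 1.95%.

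GATA3, the luminal zinc finger factor, ran the other way. It read 105 and 106 on the code 1 miR-148b arrays and 110.1 on the code 1 control array. On the other arrays it read 272 and 315 with miR-148b and 330.2, 244 and 222 in control. All code 1 arrays lay below all others, at 107 ± 2.78 (SD, n = 3), against 277 ± 45.8 (SD, n = 5) elsewhere, a mean log2 difference of -1.35 on a probe that is dim throughout.

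ESR1, the estrogen receptor gene, read from 54.6 to 82.4 on code 1 arrays and from 58.1 to 92.5 on the others, a mean log2 difference of -0.07, and 0.15 at its still dimmer second probe. XBP1 was bright and nearly level, from 9133 to 11455 on code 1 arrays and from 8823 to 11108 on the others, a mean log2 difference of -0.03. Neither gene separated the codes at either of its probes. GREB1, an estrogen-induced gene, read from 18.8 to 36.9 on code 1 arrays and from 24.5 to 62.7 on the others, with overlap and a mean log2 difference of -0.35. Its other probe was empty on replicate 1 of both groups and read 5.35 on the remaining code 1 array, against 15.5 to 28.1 on the others.

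Of the 7 genes, 3 were higher and 1 lower on code 1 arrays without overlap, where 15.8% of genes were higher and 17.4% lower in this way. In the model with treatment and plus mark, 28.6% of 33240 probes passed an adjusted p of 0.05 for code 1. The members were chosen on this contrast, so nothing is read from these counts.

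**Figure D1:**
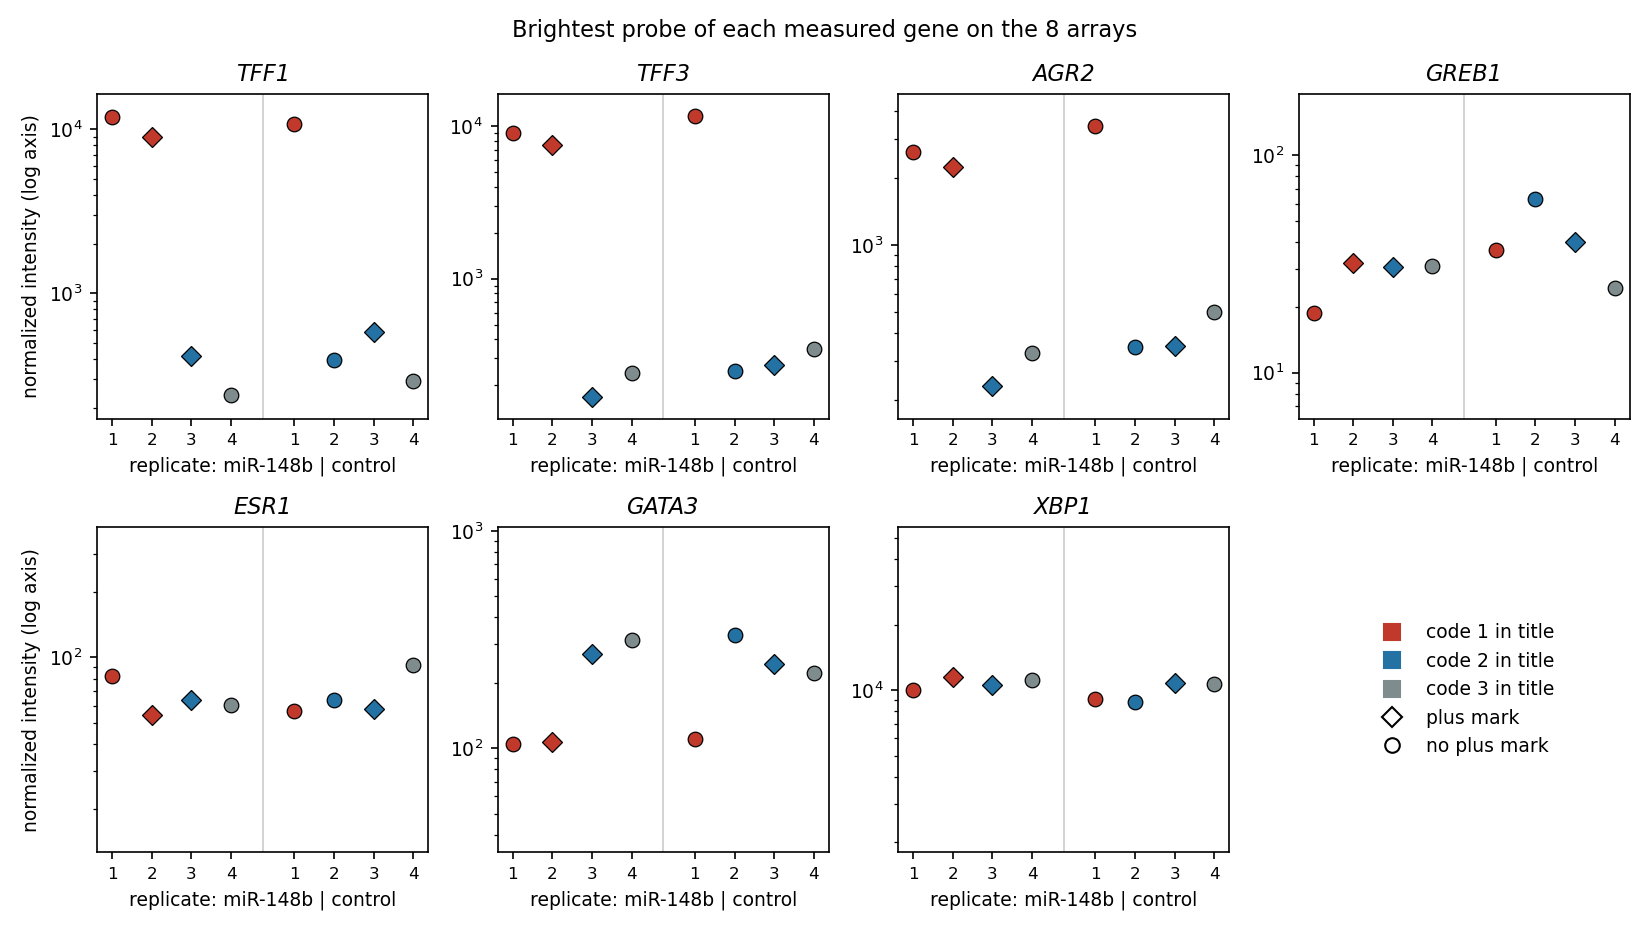
Normalized intensity (log axis) of the brightest probe of the 7 measured genes, 1 point per array, with miR-148b replicates left of control replicates, the code of the title as colour and the plus mark as a diamond. TFF1, TFF3 and AGR2 stand high on the 3 code 1 arrays of both treatments, GATA3 stands low there, and ESR1, XBP1 and GREB1 do not separate the codes.

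TFF2, the trefoil factor gene that lies between TFF3 and TFF1 on chromosome 21, went with its neighbours. It read 4925 and 4457 on the code 1 miR-148b arrays and 7378 on the code 1 control array, against 319 and 362 with miR-148b and 431, 426 and 448 in control on the other arrays. Its mean log2 difference between code 1 and the other arrays was 3.79. The genes next to this cluster were dim on all arrays. ABCG1, a sterol transporter gene next to TFF3, read 42.3 ± 17.3 (SD, n = 3) on code 1 arrays, against 53.9 ± 19.1 (SD, n = 5) elsewhere. TMPRSS3, a protease gene next to TFF1, averaged 15.3 on code 1 arrays and 6.59 elsewhere, with empty cells on 2 arrays. Farther along, SLC37A1, a sugar phosphate transporter gene, and PDE9A, a cyclic GMP phosphodiesterase gene, were lower on code 1 arrays, with mean log2 differences of -2.26 and -2.81 (PDE9A with 1 empty cell). The order of genes is that of the RefSeq table of GRCh38.p14, used only for which genes neighbour each other.

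**Figure D2:**
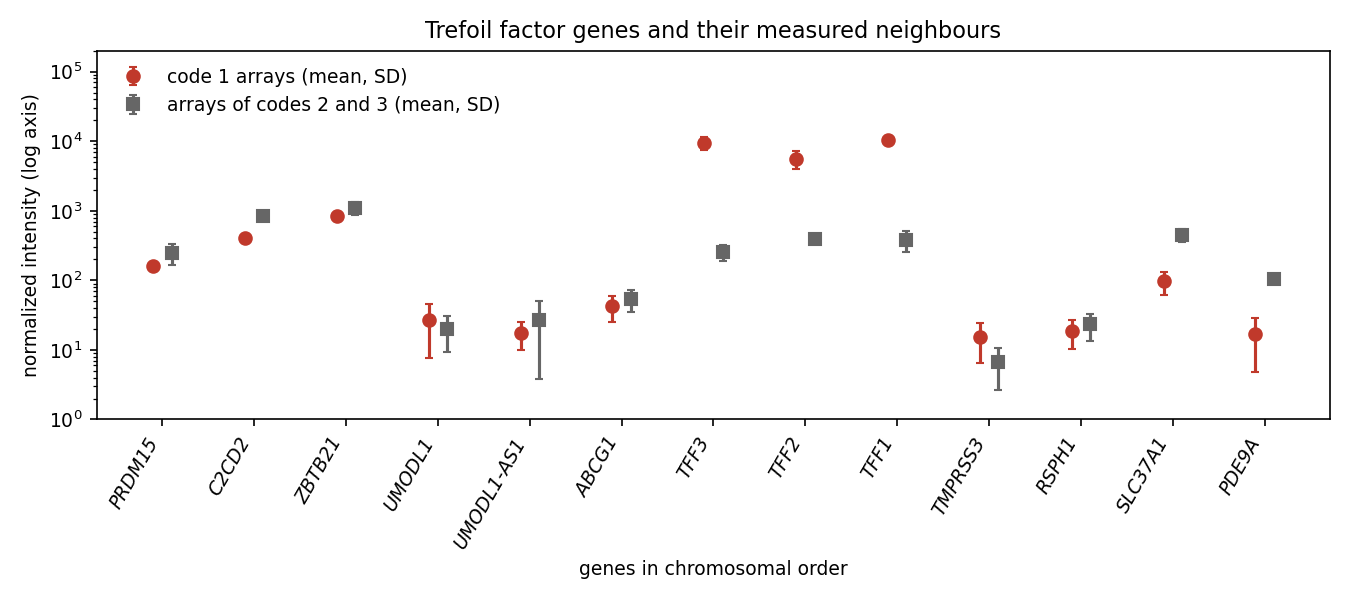
Mean normalized intensity (log axis, bars are SD) of TFF3, TFF2, TFF1 and their measured neighbours in chromosomal order, on the 3 code 1 arrays (circles) and the 5 arrays of codes 2 and 3 (squares). The 3 trefoil factor genes are set apart by code, with mean log2 differences of 5.24, 3.79 and 4.83, while ABCG1 and TMPRSS3 on either side are dim on all arrays.

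The genes most like TFF1, TFF3 and AGR2 were taken as those with the smallest root mean square difference of centred log2 values over the 8 arrays, among 14820 genes. These profiles share the arrays and their normalization. For TFF1 they were SETBP1 (0.26), SORCS3 (0.30), SEL1L3 (0.31), TCF4 (0.32) and DMD (0.39), each at least 4.88 higher on code 1 arrays on the log2 scale. For TFF3 the nearest were 3 genes of the cancer-testis family PAGE, PAGE2 (0.15), PAGE5 (0.19) and PAGE2B (0.23), which are close relatives whose probes may not tell them apart, and then TCF4 (0.32) and SEL1L3 (0.34). For AGR2 they were PRSS2 (0.20), CD24 (0.20), PPP2R2C (0.24), CHDH (0.25) and NDRG2 (0.26). TFF1 and TFF3 differed from each other by 0.53 and from AGR2 by 1.03 and 1.08, so all of these genes lay nearer to their member than the members did to one another.

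**Figure D3:**
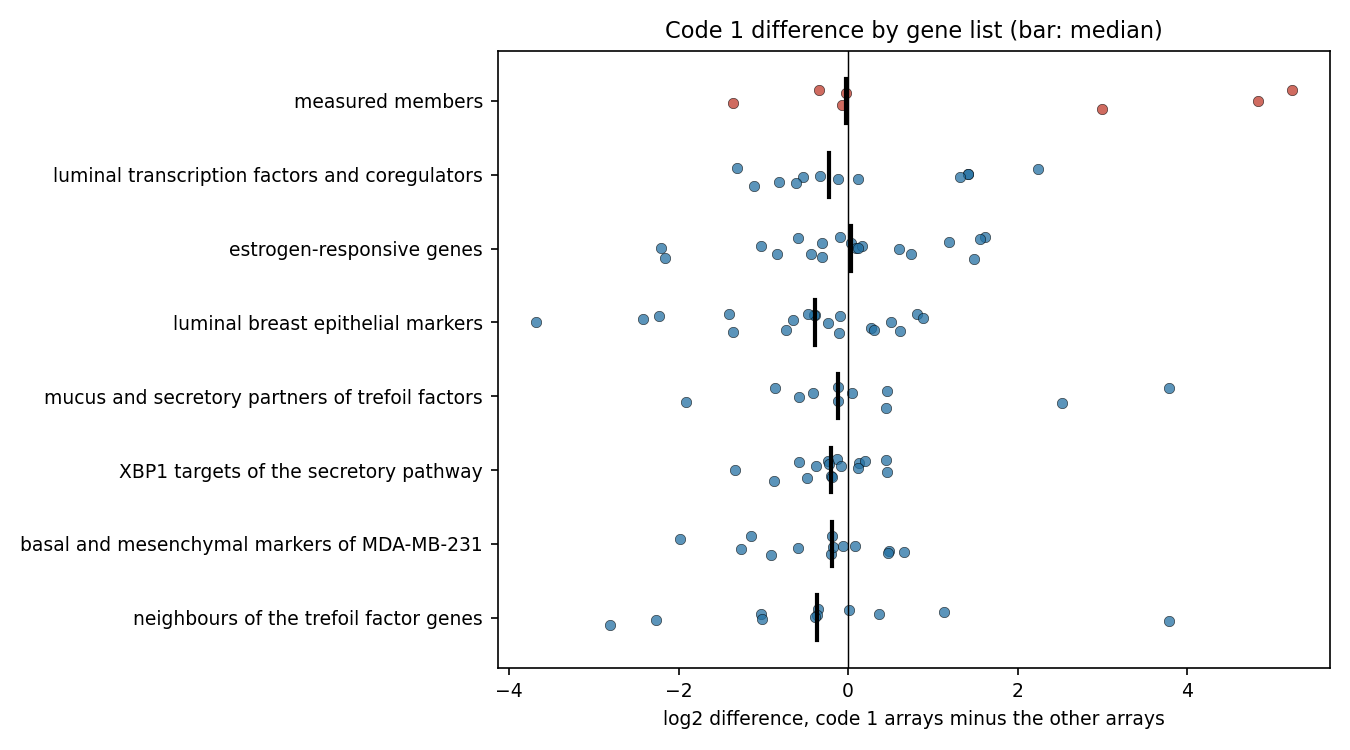
Mean log2 difference between the 3 code 1 arrays and the 5 other arrays for the 7 measured members and for the genes of 7 lists, 1 point per gene, with bars at the list medians. The trefoil factors, chosen on this contrast, and AGR2 lie at 3.00 and above in the top row. The median of the 7 members is -0.03, and the list medians lie between -0.40 and 0.03.

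The other genes of the luminal program did not follow the trefoil factors as a group. Of 12 measured luminal transcription factors and coregulators, 4 were higher and 4 lower on code 1 arrays without overlap, with a median log2 difference of -0.23, against -0.04 over all genes. Genes with an empty cell enter the medians and were not judged for overlap. The 4 higher were MYB, a transcription factor of luminal tumours, at 2.25, ELF3, an epithelial ETS factor, at 1.42, NRIP1 at 1.41 and SPDEF at 1.33. SPDEF averaged 1703 ± 367 (SD, n = 3) on code 1 arrays, against 685 ± 154 (SD, n = 5) elsewhere. The 4 lower were TFAP2A at -1.31, ZNF703 at -1.11, EHF at -0.82 and TLE3 at -0.62. Of 19 estrogen-responsive genes, 4 were higher and 4 lower, with a median of 0.03. The signalling proteins CCN5 and ADORA1 were at -2.20 and -2.17, both on dim probes (means of 62.0 and 34.5). The other lower ones were SUSD3 at -1.03 and IL6ST at -0.59. The 4 higher ones were RERG at 1.61, IGFBP4 at 1.56, PDZK1 at 1.19 and MYC at 0.74. Of 19 luminal epithelial markers, 3 were higher and 6 lower, with a median of -0.40. The 3 higher were MLPH at 0.88, CELSR1 at 0.61 and KRT19 at 0.31. Among the 6 lower was the membrane mucin MUC1 at -2.42. MUC1 averaged 80.8 ± 39.9 (SD, n = 3) on code 1 arrays, against 413 ± 102 (SD, n = 5) elsewhere. DNALI1, a dynein chain gene, was at -3.69 with a value on only 1 code 1 array.

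Among 11 mucus and secretory partners, 2 were higher and 2 lower, with a median of -0.12. The higher ones were TFF2 and S100P, a small calcium-binding protein, which averaged 1055 ± 238 (SD, n = 3) on code 1 arrays, against 184 ± 41.2 (SD, n = 5) elsewhere. The gel-forming mucins MUC2, MUC5AC, MUC5B and MUC6 lay between -0.58 and 0.46. Among 16 XBP1 targets, 1 was higher and 3 lower, with a median of -0.20, led by the coat protein gene SEC24D at -1.34 and the isomerase PDIA4 at -0.88. Among 13 measured basal and mesenchymal genes, 2 were higher and 4 lower, with a median of -0.19, led by the matrix protein gene SPARC at -1.99 and the adhesion receptor CD44 at -1.26. Of the 11 measured genes around the trefoil cluster, 1 was higher, TFF2 itself, and 3 were lower. The share of all genes behind each of these counts is the 15.8% higher and 17.4% lower given above.

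The plus mark was not used to choose the members. In limma, with treatment and code 1 in the model, 0 of the 7 genes passed an adjusted p of 0.05 for the plus mark. Of 33240 probes 16.7% did. Of 15971 genes by their brightest probe, 910 did as higher and 1229 as lower. TFF1 was at 0.45 (SE 0.25, adjusted p = 0.243), TFF3 at -0.27 (SE 0.15, adjusted p = 0.254) and AGR2 at -0.30 (SE 0.15, adjusted p = 0.207). Of the 13 probes 1 passed, the second and very dim probe of ESR1, which read 12.2, 12.6 and 12.8 on the plus arrays and 16.0 to 21.1 on the others and fell by 0.50 (limma adjusted p = 0.0410), where 9.59% of probes were lower at this threshold. Leaving out 1 array at a time, the call was lost for 7 of the 8 arrays (adjusted p up to 0.126) and held without miR-148b replicate 1 (limma adjusted p = 0.0429). The brighter ESR1 probe was at -0.27 (adjusted p = 0.389).

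The comparison of the study asked which genes the miR-148b precursor modulated. Taken over all 8 arrays, none of the 7 genes passed the test. TFF1 averaged 5379 ± 5939 with miR-148b and 3029 ± 5213 in control (SD, n = 4 each), TFF3 4278 ± 4744 and 3156 ± 5738, and AGR2 1355 ± 1254 and 1156 ± 1515. Within each group the SD exceeded the mean for all but the miR-148b mean of AGR2. The code 1 arrays, 2 with miR-148b and 1 in control, stood far above the rest. The log2 differences were 0.97 (95% interval -2.64 to 4.58) for TFF1, 0.84 (-3.08 to 4.76) for TFF3 and 0.27 (-2.05 to 2.59) for AGR2. These intervals allow large changes either way. In limma over 33446 probes 0 passed an adjusted p of 0.05, which is 0%, and 1431, or 4.28%, an unadjusted one. Of the 13 member probes 0 passed the unadjusted threshold and 0 of the 7 genes had groups without overlap, where 4.01% of genes had.

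Compared within codes, TFF3 and AGR2 were lower with miR-148b in each code, and TFF1 slightly so. For AGR2 the log2 differences were -0.50, -0.60 and -0.62 in codes 1, 2 and 3. For TFF3 they were -0.50, -0.62 and -0.52, and for TFF1 -0.07, -0.20 and -0.27. The dimmer probe of TFF1 gave -0.39, -0.21 and -0.03. XBP1 was above control in each code, at 0.23, 0.11 and 0.05, and ESR1, GATA3 and GREB1 went both ways. Thus 3 of the 7 genes were below control in each code and 1 above, where 24.4% of probes were below and 25.0% above in each. Only code 1 has 2 miR-148b arrays and only code 2 has 2 control arrays, so a within-code value rests on 2 or 3 arrays. In codes 2 and 3 TFF3 read 168 to 344 and AGR2 231 to 498. All of these but the AGR2 reading of control replicate 4 lay below the lowest array median of 370. Readings this low may lie near background.

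**Figure D4:**
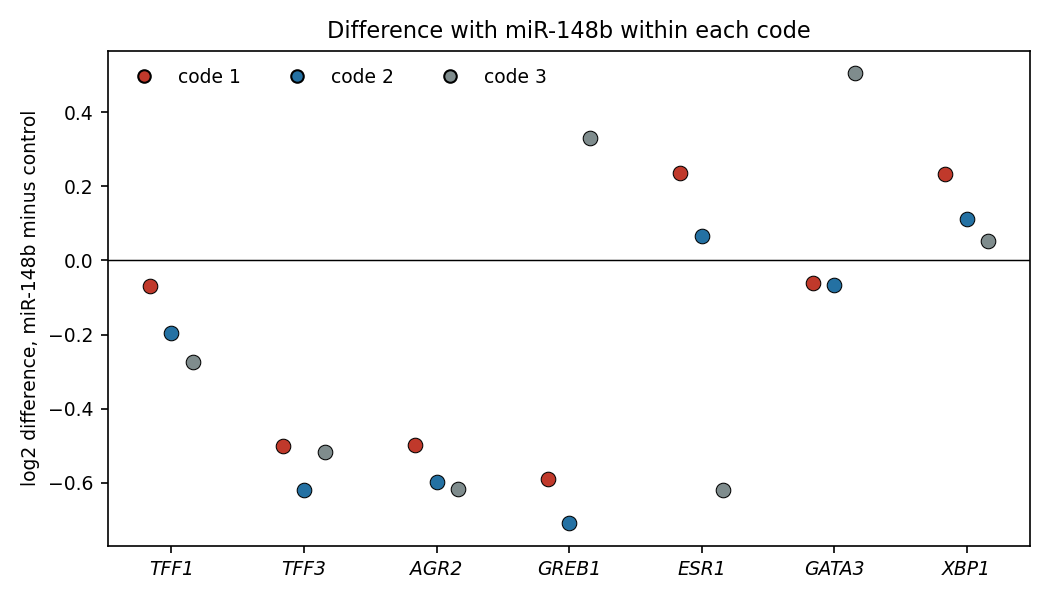
Log2 difference between miR-148b and control arrays (mean of log2 values) within codes 1, 2 and 3, for the 7 measured genes, 1 point per code. TFF3 and AGR2 lie between -0.62 and -0.50 in every code, TFF1 lies between -0.27 and -0.07, and XBP1 lies just above 0.

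With the code number as a block, AGR2 was at -0.57 (SE 0.12, 95% interval -0.85 to -0.28) and TFF3 at -0.55 (SE 0.12, 95% interval -0.85 to -0.25). In limma their unadjusted p was 0.00264 and 0.00409, and the adjusted p over all probes 0.503 for both, so neither passed. TFF1 was at -0.17 (SE 0.18, adjusted p = 0.734), and its dimmer probe at -0.22. With this block 0 of 33353 probes, 0%, passed the adjusted threshold, and 9.69% the unadjusted one, 4.47% as lower. The 4 member probes among these, all lower, were AGR2 and all 3 of TFF3, whose other probes were at -0.37 and -0.63. TFF2, outside the members, was at -0.48 (unadjusted p = 0.00796 in limma with the block).

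The plus mark differs between the groups within codes 1 and 2, and the block does not remove it. In the pairs of replicates 1, 3 and 4, which match in both code and plus mark, AGR2 was at -0.39, -0.61 and -0.62 and TFF3 at -0.37, -0.68 and -0.52. TFF1 was at 0.12, -0.48 and -0.27, and its dimmer probe at -0.25, -0.34 and -0.03. Below control in all 3 pairs were 17.6% of probes. With code 1 and plus mark as terms in place of the block, 0 of 33240 probes passed the adjusted threshold, 0%, and 12.1% the unadjusted one. Of the 13 member probes 2 passed the unadjusted one, AGR2 and the brightest of TFF3, a share near that of all probes. The other TFF3 probes were at -0.27 and -0.30 (limma unadjusted p = 0.0690 and 0.504). In this model AGR2 was at -0.43 and TFF3 at -0.42 (limma adjusted p = 0.365 and 0.367), and TFF1 at -0.38 (0.580). The dimmer probe of TFF1 was at -0.10. Without the code 1 arrays AGR2 was at -0.52, TFF3 at -0.50 and TFF1 at -0.35 (limma adjusted p = 1.00 each), on 2 miR-148b arrays and 3 control arrays.

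**Figure D5:**
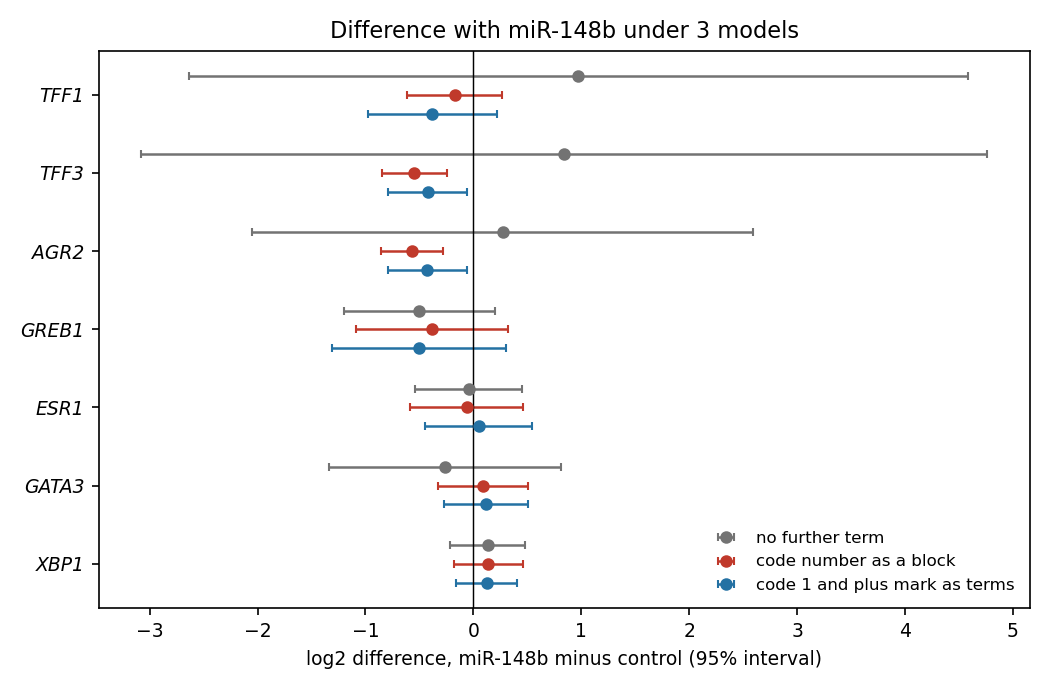
Log2 difference between miR-148b and control with its 95% interval from limma for the 7 measured genes, with no further term (grey), with the code as a block (red) and with code 1 and plus mark as terms (blue). The intervals of TFF1, TFF3 and AGR2 are wide and span 0 without a further term and narrow with either addition, where those of TFF3 and AGR2 lie below 0.

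None of the luminal regulators passed the test in any of these models. ESR1 was at -0.04 without a block (95% interval -0.54 to 0.45) and -0.06 with the code as a block (-0.58 to 0.46). GATA3 was at -0.26 (-1.34 to 0.81) and 0.09 (-0.33 to 0.51), XBP1 at 0.13 (-0.21 to 0.48) and 0.14 (-0.18 to 0.46), and GREB1 at -0.50 (-1.20 to 0.20) and -0.38 (-1.09 to 0.32). The limma adjusted p lay between 0.650 and 0.971 for these values. Without a block it was 0.923 for TFF1, 0.936 for TFF3 and 0.963 for AGR2. Whether the effect of miR-148b differed between code 1 and the other codes was tested as an interaction. In limma 0 of 33191 probes passed an adjusted p of 0.05, which is 0%, with 498 (1.50%) past an unadjusted one and 0 of 12 member probes. Code 1 has a single control array, which limits that test.

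None of the genes in the fixed lists passed with miR-148b, without or with the block. Of the mucus and secretory partners 6 of 11 were below control, with a median log2 difference of -0.03, and 8 of 11 with the block, with a median of -0.22. Over all 15971 genes 8534 were below control and 7437 above, with a median of -0.03. With the block 8432 were below and 7500 above, with a median of -0.02. FCGBP, a mucin-like protein, was at -0.69, or -0.51 with the block. The intestinal mucin MUC2 was at -0.35, or -0.39 with the block. Of the estrogen-responsive genes 11 of 19 were below control, with a median of -0.15, and 12 with the block, with a median of -0.14, with the protease gene CTSD at -0.87 and the ubiquitin ligase gene SIAH2 at 0.37. Of the luminal epithelial markers 13 of 19 were below, with a median of -0.12, and 12 with the block, with a median of -0.07, with the tight junction gene CLDN3 at -0.39 and CDH1 at 0.82, whose control replicate 1 stood low. Of the luminal factors 7 of 12 were below, with a median of -0.09, but 4 with the block, with a median of 0.04. TBX3 was at 0.36 on 5 arrays and the corepressor NRIP1 at 0.50, or 0.22 with the block.

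Of the XBP1 targets 12 of 16 were above control, with a median of 0.11, and 13 with the block, with the chaperone HSPA5 and its partner SDF2L1 at 0.28 each. Of the basal and mesenchymal genes 10 of 13 were below, with a median of -0.15, and 7 with the block, with a median of -0.02, with KRT14 at -0.41 and the repressor ZEB1 at -0.32. Of the 11 measured genes around the trefoil cluster 6 were above and 5 below control, but 5 above and 6 below with the block. UMODL1 was at 0.74 and SLC37A1 at -1.0, or -0.45 with the block.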

How the data were processed

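Per the labels' descriptions, the scans of the 8 arrays were read by Agilent Feature Extraction 10.5.1.1. The authors deposited normalized intensity values, linear and not logged, and 0 columns were left out. All arrays share a top value of 243058 and their medians lie between 370 and 404, which quantile normalization between arrays with unequal numbers of empty cells could give. How background was treated, how values were normalized and which probes were filtered is not given in the sources used here. Values scaled like this cannot show a shift common to all genes.

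The log2 of each value was used with a pseudocount of 0. Empty cells (2864 probes, at most 3 arrays each) were kept empty, and a probe entered a model only if its remaining arrays could estimate the effect. GEO's platform annotation gave the gene names, updated through gene numbers (24790 probes with 1 gene, 27 with several, 8629 unnamed). Models were fitted in limma 3.58.1 under R 4.3.3 (two-sided, Benjamini-Hochberg over all probes, threshold 0.05) and tested on simulated data. Figures were drawn with matplotlib 3.10.9. Other genes were named by rule: per list the 2 with the smallest p with miR-148b and up to 2 with the largest code 1 difference, and the 5 most alike profiles. Keratins, gel-forming mucins and genes flanking the trefoil cluster are named as markers or by position. In the luminal and estrogen-responsive lists, some further genes whose code 1 arrays did not overlap with the others are named as well. The members and lists were chosen with earlier results of these data known. Alternatives covered blocks, terms, dim probes, centring, pseudocount, probe choice and arrays left out. Same-numbered replicates deviated together for numbers 1, 3 and 4 and not for number 2, whose arrays differ in code and plus mark, so the replicate number was used as a block only in an alternative.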

Additional observations from a re-analysis of the deposited data

Results flagged for a closer look

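Control replicate 1, the only control array of code 1, stood far from the other 3 control arrays for TFF1, TFF3 and AGR2. Its gap to the nearest array was 0.972 of the group's range for TFF1 (10846 against 292 to 584), 0.992 for TFF3 (11763 against 247 to 344) and 0.951 for AGR2 (3427 against 348 to 498). For GREB1, miR-148b replicate 1 stood below the other 3 miR-148b arrays at 18.8 against 30.7 to 31.8, a gap of 0.912 of the range on a very dim probe. Each gap is above Dixon's 95% critical value for 4 arrays, and 14 groups were examined. For TFF1, TFF3 and AGR2 this is a description and no test, since the genes were chosen on their code 1 readings. For a group not chosen in this way, chance passes the limit in about 1 of 20.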

How the results depend on the processing

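With miR-148b, 0 probes passed an adjusted p of 0.05 under every alternative run, including the replicate number as a block. That block gave TFF1 0.97, TFF3 0.84 and AGR2 0.27, and changed no call. The replicate numbers do not pair all arrays: deviations from the group means correlated at 0.61, -0.50, 0.59 and 0.66 for replicates 1 to 4. Of 116 member values under alternatives 22 changed sign, all uncalled. With the code number as a block TFF1 was at -0.17, TFF3 at -0.55, AGR2 at -0.57 and GATA3 at 0.092. With code 1 and plus mark as terms TFF1 was at -0.38, TFF3 at -0.42, AGR2 at -0.43, ESR1 at 0.048 and GATA3 at 0.12. Without the code 1 arrays TFF1 was at -0.35, TFF3 at -0.50, AGR2 at -0.52 and GATA3 at 0.16, and without the plus arrays ESR1 at 0.019. Leaving out 1 array at a time gave 0.07 to 2.16 for TFF1, -0.10 to 2.19 for TFF3, -0.29 to 1.05 for AGR2 and -0.16 to 0.11 for ESR1. AGR2 was at -0.049 and -0.045 without control replicates 2 and 3, and at -0.29 and -0.22 without miR-148b replicates 1 and 2. TFF3 was at -0.095 and -0.0086 without miR-148b replicates 1 and 2. ESR1 was at 0.11 with control replicate 4 left out and at 0.035 with miR-148b replicate 2 left out. The probes passing for code 1 numbered 9510, and from 4777 to 10064 with 1 array left out. Those passing for the plus mark numbered 5551, 2432 without the other terms, and from 915 to 8136 with 1 array left out. The members' code 1 differences moved by more than their spread between arrays for TFF1 with the mean of its probes (4.20) and GATA3 with a pseudocount of 32 (-1.18). The alternatives of the second ESR1 probe were added after its call was seen, and the call was also lost without the other terms (adjusted p = 0.0750) and with a pseudocount of 32 (0.232). Apart from those stated, the cause was not tested. Dim probes such as those of ESR1 and GREB1 limit what signal over background allows.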

Other observations

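For the plus mark 16.7% of all probes passed the test. Of 15971 genes by their brightest probe, 910 passed as higher and 1229 as lower. The counts of list genes below are a description and no result about the lists. They lie near or below these shares except for 3 of 11 mucus partners and 3 of 11 genes around the trefoil cluster. The genes named here are those that passed an adjusted p of 0.05 in limma for the plus mark, with treatment and code 1 in the model, and were chosen after their values were seen. Among the 19 estrogen-responsive genes 2 fell and 1 rose, near the share over all probes. BCL2, the inhibitor of apoptosis, read 642, 753 and 799 on the plus arrays and 1419 to 3027 on the others, and fell by 1.71 on the log2 scale (adjusted p = 0.00787). CXCL12, a chemokine gene, fell by 1.22 (adjusted p = 0.00969), and CCN5 rose by 0.75 (adjusted p = 0.0154). Among the 11 mucus partners MUC6 fell by 0.84, MUC5AC fell by 0.60 and MUC16 rose by 1.01 (adjusted p = 0.0188, 0.0483 and 0.0340). Among the 16 XBP1 targets EDEM1, which helps clear misfolded proteins, and the translocon gene SSR1 rose by 0.76 and 0.67 (adjusted p = 0.0250 and 0.0335). XBP1 itself was at 0.10. Beside the trefoil cluster ABCG1 fell by 1.01, and RSPH1 and ZBTB21 rose by 1.09 and 0.44 (adjusted p = 0.0170, 0.0304 and 0.0435). Of the remaining lists ESRP1, CAV2 and TWIST1 passed, at 0.45, 0.45 and -0.88. These single calls were not repeated with arrays left out. The dim probes among them include MUC16 (mean of 19.0, with 1 empty cell) and RSPH1 (21.6). CXCL12, MUC5AC and ABCG1 were dim as well (means of 44.5, 48.8 and 49.5). What the plus mark stands for is not given by the labels.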
